A study of Mus musculus with 8 samples.

Results

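Interferon-stimulated genes were followed as a set of 44 genes chosen by symbol, and 43 of these genes had a value among the 32334 genes of the EpiLC and EpiSC tables. The set and the further gene lists were chosen with earlier results of these data known. Their counts beside the shares over all genes are therefore a description and no independent test. The 44 genes of the set are grouped by role. They comprised 13 regulators, 7 GTPases, 10 sensors of foreign nucleic acid and 14 effectors, and of the effectors Isg15 is not analysed here. The values come from bulk RNA-seq of mouse R1 cells, with 8 libraries in 4 groups of 2: Mll3/4 dCD EpiLC, WT EpiLC, Mll3/4 dCD EpiSC and WT EpiSC. In Mll3/4 dCD cells the histone H3 lysine 4 methyltransferases MLL3 and MLL4 (KMT2C and KMT2D) carry mutations in their catalytic domains, and the comparison with WT asks which transcripts change without that activity. EpiLC (epiblast-like cells, a model of the formative epiblast) were kept for 2 days in activin A (20 ng/ml) and bFGF (12 ng/ml), and EpiSC (epiblast stem cells, a model of a later epiblast) for at least 8 days. The dCD cells are a single line derived from R1 embryonic stem cells, so genotype and line cannot be told apart, and the labels name no interferon treatment. The labels do not say whether the libraries of a group came from separate cultures, so the p values cover only the variation among these libraries, which could be technical. Pou5f1, a marker of pluripotent cells, was at least 869.5 in each library. T, a marker of the primed state, had 292 and 319 in dCD EpiSC and 241 and 196 in WT EpiSC, beside 17.8 and 18.2 in dCD EpiLC and 4.25 and 3.75 in WT EpiLC. Not every marker listed for these states moved as T did. Dnmt3b had means of 520 in dCD EpiLC, 788 in WT EpiLC, 357 in dCD EpiSC and 392 in WT EpiSC. The 7 markers of this list are counted below.

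Interferons are secreted proteins that bind receptors on the cell surface and activate JAK kinases, which phosphorylate STAT proteins. STAT2 and IRF9 are parts of the complex ISGF3, which binds the interferon-stimulated response element (ISRE), while pairs of STAT proteins bind the gamma-activated site (GAS). The genes switched on in this way detect and restrict viruses, and mouse pluripotent stem cells are known for a weak response to interferon.

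Promoters are given first because ISRE and GAS are the elements through which such genes are known to respond. Windows of 300 bases, 250 before and 50 from the transcription start (RefSeq, GRCm38.p6), were found for 33 of the 43 genes and searched on both strands for 2 copies of GAAA with 2 bases of any kind between them (ISRE) and for TTCNNNGAA (GAS). An ISRE match was present for 16 of the 33 genes (48.5%), against 3.99% of all 27025 genes with such a window. A GAS match was present for 11 (33.3%), against 9.55% of all genes, and 22 (66.7%) held at least 1 match of either kind, against 12.9% of all genes. By role, an ISRE match was found for 4 of 4 GTPases, 5 of 7 sensors, 5 of 12 effectors and 2 of 10 regulators. Matches overlapped each other in 4 genes (Bst2, Gbp3, Oas1a and Trim21). No window was found for Usp18, Parp9, Parp14, Gbp4, Mx1, Mx2, Dhx58, Zbp1, Oas2 and Rtp4. Of the 15 genes with a window that were called higher in dCD EpiLC (tests below), 11 held a match, and Nmi, Oasl2, Irf9 and Xaf1 held none. Of the other 18 genes with a window, 11 held a match. The windows below all hold a match and belong to some of the called genes: 3 neighbouring GTPase genes, the transcription factor gene Irf1, and the effectors Bst2 and Ifit1. Capitals mark ISRE and GAS matches, and each sequence runs 5′ to 3′ on the strand of its gene.
Gbp2 (chr3:142620413-142620712, plus strand): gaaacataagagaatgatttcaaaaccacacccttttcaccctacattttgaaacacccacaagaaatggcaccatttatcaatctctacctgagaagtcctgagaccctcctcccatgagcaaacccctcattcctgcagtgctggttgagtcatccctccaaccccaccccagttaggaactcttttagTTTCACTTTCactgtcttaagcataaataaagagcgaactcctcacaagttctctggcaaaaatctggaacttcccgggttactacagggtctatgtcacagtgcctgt
Gbp3 (chr3:142559794-142560093, plus strand): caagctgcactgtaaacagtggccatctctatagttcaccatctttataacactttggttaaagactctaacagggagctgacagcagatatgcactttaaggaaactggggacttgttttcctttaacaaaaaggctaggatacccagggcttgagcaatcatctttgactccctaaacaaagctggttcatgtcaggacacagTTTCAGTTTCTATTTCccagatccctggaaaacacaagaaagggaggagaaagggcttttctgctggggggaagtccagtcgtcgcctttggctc
Gbp7 (chr3:142530086-142530385, plus strand): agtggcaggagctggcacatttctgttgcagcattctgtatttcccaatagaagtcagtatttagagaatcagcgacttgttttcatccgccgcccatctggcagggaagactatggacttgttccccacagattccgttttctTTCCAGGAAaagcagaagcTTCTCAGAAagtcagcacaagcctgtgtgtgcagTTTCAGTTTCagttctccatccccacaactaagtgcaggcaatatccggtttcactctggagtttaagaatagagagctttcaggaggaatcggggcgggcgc
Irf1 (chr11:53769764-53770063, plus strand): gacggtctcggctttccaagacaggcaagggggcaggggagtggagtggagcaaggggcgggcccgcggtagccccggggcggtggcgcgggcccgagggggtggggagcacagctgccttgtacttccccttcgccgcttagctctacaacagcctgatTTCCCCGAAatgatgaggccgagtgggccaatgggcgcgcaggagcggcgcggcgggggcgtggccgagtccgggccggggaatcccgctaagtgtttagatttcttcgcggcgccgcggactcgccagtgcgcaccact
Bst2 (chr8:71537423-71537722, minus strand): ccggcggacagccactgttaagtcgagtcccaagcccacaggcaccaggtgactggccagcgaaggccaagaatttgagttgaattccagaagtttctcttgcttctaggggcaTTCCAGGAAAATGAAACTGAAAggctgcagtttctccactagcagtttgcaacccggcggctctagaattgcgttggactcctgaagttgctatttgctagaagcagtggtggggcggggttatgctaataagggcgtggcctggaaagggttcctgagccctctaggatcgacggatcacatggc
Ifit1 (chr19:34640639-34640938, plus strand): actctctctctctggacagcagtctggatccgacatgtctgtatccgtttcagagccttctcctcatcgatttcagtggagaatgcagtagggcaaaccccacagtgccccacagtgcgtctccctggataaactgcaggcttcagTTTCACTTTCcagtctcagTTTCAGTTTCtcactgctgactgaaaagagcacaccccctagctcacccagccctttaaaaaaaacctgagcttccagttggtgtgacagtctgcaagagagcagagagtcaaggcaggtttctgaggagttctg

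In Gbp2 the ISRE began 59 bases before the transcription start, and in Gbp3 a pair of overlapping ISRE began 45 and 39 bases before it. Gbp7 held GAS matches 106 and 87 bases before the start and an ISRE 53 bases before it. Irf1 held a GAS 90 bases before the start and no ISRE. Ifit1 held ISRE 104 and 85 bases before the start, and in Bst2 a GAS at 136 bases overlapped the first of 2 overlapping ISRE at 130 and 124 bases. A match is a run of letters, and no binding of a factor was measured in these data.

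**Figure D1:**
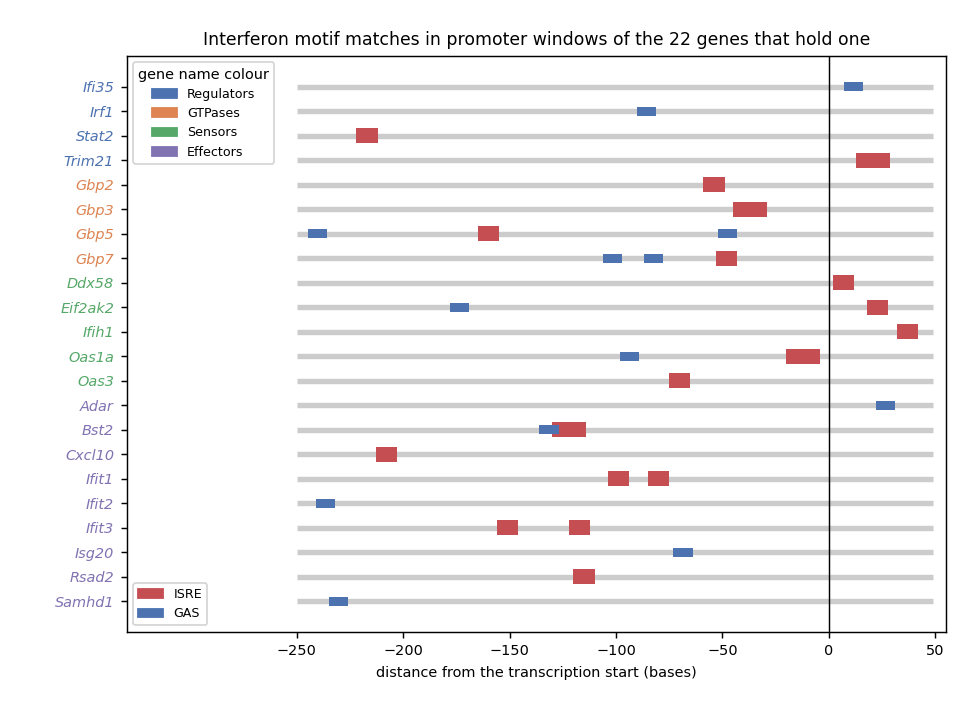
ISRE (red) and GAS (blue) matches in the promoter windows of the 22 genes that hold at least 1, by distance from the transcription start in bases, with gene names coloured by role. ISRE matches began 59 bases before the start in Gbp2, 45 and 39 in Gbp3, 53 in Gbp7, and 104 and 85 in Ifit1.

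Levels are given in the deposited unit, headed TPM, which is corrected for transcript length, although the column sums differed between libraries. Bst2, which encodes the virus-tethering membrane protein tetherin, had the highest mean of the 43 genes in each group, at 291 in dCD EpiLC, 153 in WT EpiLC, 214 in dCD EpiSC and 263 in WT EpiSC. Of the 43 genes, 26 reached a value of 1 in both dCD EpiLC libraries and 16 in both WT EpiLC libraries, while 35 did so in dCD EpiSC and 33 in WT EpiSC. The median of the 43 group means was 2.51 in dCD EpiLC and 0.495 in WT EpiLC, and it was 5.99 in dCD EpiSC and 4.49 in WT EpiSC. Most of the genes were thus below 1 in at least 1 WT EpiLC library. Set side by side, both WT EpiSC libraries lay above both WT EpiLC libraries for 39 of the 43 genes, where 35.6% of the 22934 genes above 0 in any library did so. In dCD cells 30 of the 43 genes had this order, where 30.5% of all genes did. The stages come from separate tables whose common scaling is not stated, so no test was made between them.

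**Figure D2:**
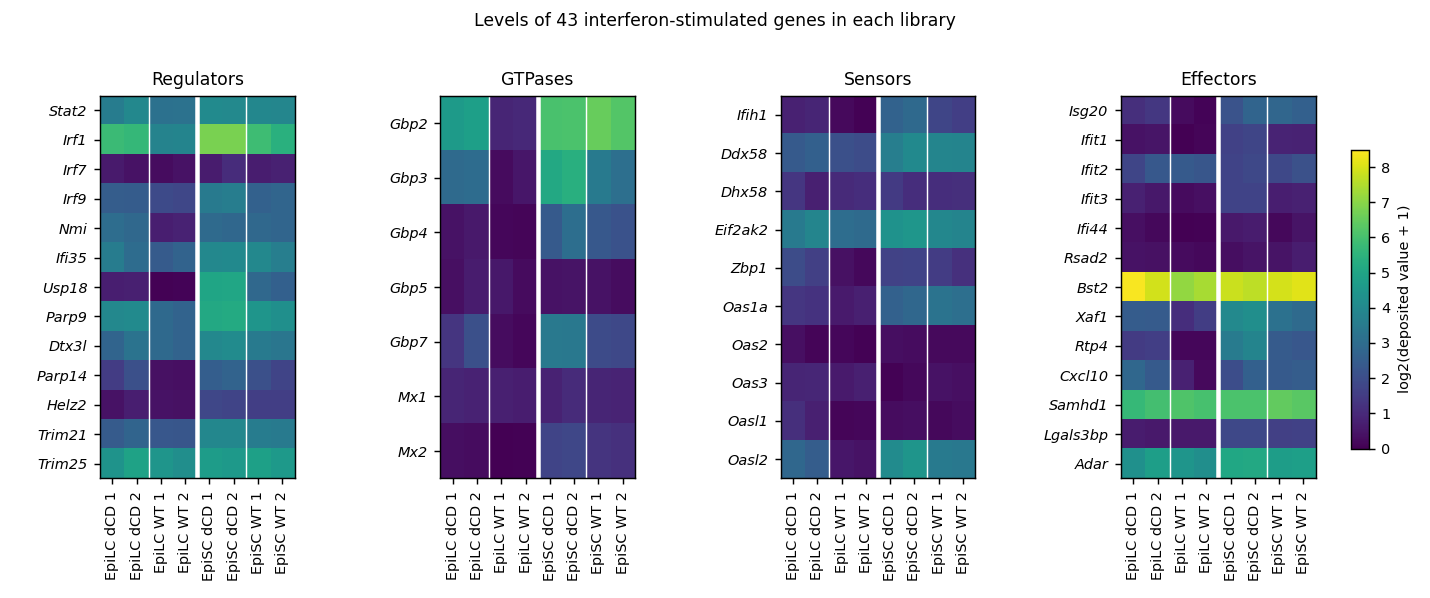
Levels of the 43 genes as log2(deposited value + 1) in each of the 8 libraries, by role, with dCD left of WT within each stage. The row of Bst2 is the brightest, and Gbp2 and Nmi are dark in WT EpiLC (means of 0.914 and 0.685) and brighter in the other 3 groups.

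For the tests a linear model (limma) was fitted on log2(value + 1) to the 12717 genes that reached 1 in 2 or more libraries, and a gene was called at a Benjamini-Hochberg adjusted p under 0.05 over all of them. Fold changes are on this log2 scale throughout, given with their standard error, and the added 1 understates the change of genes at low levels. Of the 43 genes 35 passed the filter, 33 of them by their WT libraries alone, and Ifit1 and Ifit3 passed only through dCD libraries. In EpiLC 20 of the 35 genes rose in dCD and 0 fell, where 7.56% of all tested genes were called higher and 2.57% lower (10.1% in all). In EpiSC 13 of the 35 rose and 0 fell, where 7.57% of all tested genes were called higher and 6.91% lower (14.5% in all). At an unadjusted limma p under 0.05, 25 of the 35 were higher and 1 lower in dCD EpiLC, and 17 were higher and 3 lower in dCD EpiSC. Among all genes called in EpiLC the share that was higher moved with the scaling, at 74.6% here, 58.8% after quantile normalization and 51% after removal of a transcript length trend, with 19 and 18 genes of the set called under these scalings (1 of the 18 lower, Samhd1). The median log2 fold change of the 35 genes was 0.68 in EpiLC and 0.41 in EpiSC, beside 0.03 and -0.01 over all tested genes. These medians depend on the added value, at 1.33 in EpiLC and 0.52 in EpiSC with 0.1 added (23 and 12 genes called, all higher) and at 0.32 and 0.28 with 5 added (15 and 17 called, of which 1 was lower in EpiSC, Oas1a). Of all tested genes 7.41% and 6.64% were called higher with 0.1 added, and 6.98% and 8.11% with 5 added. Without the filter, 14 of the 43 genes rose in EpiLC (4.2% of all genes) and 13 in EpiSC (4.14% of all genes). With the filter applied to WT libraries alone, 20 of 33 rose in EpiLC and 11 in EpiSC (6.28% of all genes at each stage). Both dCD EpiLC libraries lay above both WT EpiLC libraries for 34 of the 43 genes and below them for 1, where 22.6% and 14.9% of all genes did so. In EpiSC these counts were 27 and 6, where 26.4% and 26% of all genes did so. In bulk RNA, fewer cells that make a transcript and less transcript per cell cannot be told apart.

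At both stages 10 genes rose (Gbp3, Gbp7, Ifih1, Irf1, Irf9, Oasl2, Parp9, Rtp4, Usp18 and Xaf1), where 1.64% of all tested genes did. The number called moved with single libraries, for the set and for all tested genes. In EpiLC 9 genes were called without EpiLC WT replicate 1 and 10 without EpiLC WT replicate 2, and in EpiSC 7 were called without EpiSC dCD replicate 2 and 8 without EpiSC WT replicate 2. In EpiLC the replicate differences (replicate 1 less replicate 2) of the genotypes correlated across genes at -0.58. This does not tell which library of each pair stood apart. These differences also correlated with log2 transcript length, at -0.41 in dCD EpiLC and 0.37 in WT EpiLC, beside -0.09 in dCD EpiSC and 0.04 in WT EpiSC. Their SD was 0.52 in dCD EpiLC, 0.30 in WT EpiLC, 0.26 in dCD EpiSC and 0.22 in WT EpiSC, while the main fit gave each gene 1 spread for all 8 libraries. With each stage fitted alone, 11 genes of the set were called in EpiLC and 19 in EpiSC (1 of the 19 lower). Of all tested genes 349 and 3511 were called. The order of the stages by number of calls thus depends on how the spread is estimated. Without both EpiLC WT replicate 2 and EpiLC dCD replicate 1, the median log2 fold change of the 35 genes in EpiLC was 0.69. In EpiLC 8 genes were called under each alternative in which they were tested (Irf1, Nmi, Parp9, Gbp2, Gbp3, Zbp1, Oasl2 and Rtp4), and in EpiSC 7 were (Irf1, Usp18, Gbp3, Ifih1, Ifit1, Ifit3 and Rtp4). That was 22 alternatives for most of these genes, 21 for Nmi, Zbp1, Rtp4 and Ifih1, and 20 for Ifit1 and Ifit3, which stricter filters left out. Conversely, some genes without a call were called under alternatives, in EpiSC Eif2ak2 under 10, Dtx3l under 9 and Parp14 under 8 of them.

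**Figure D3:**
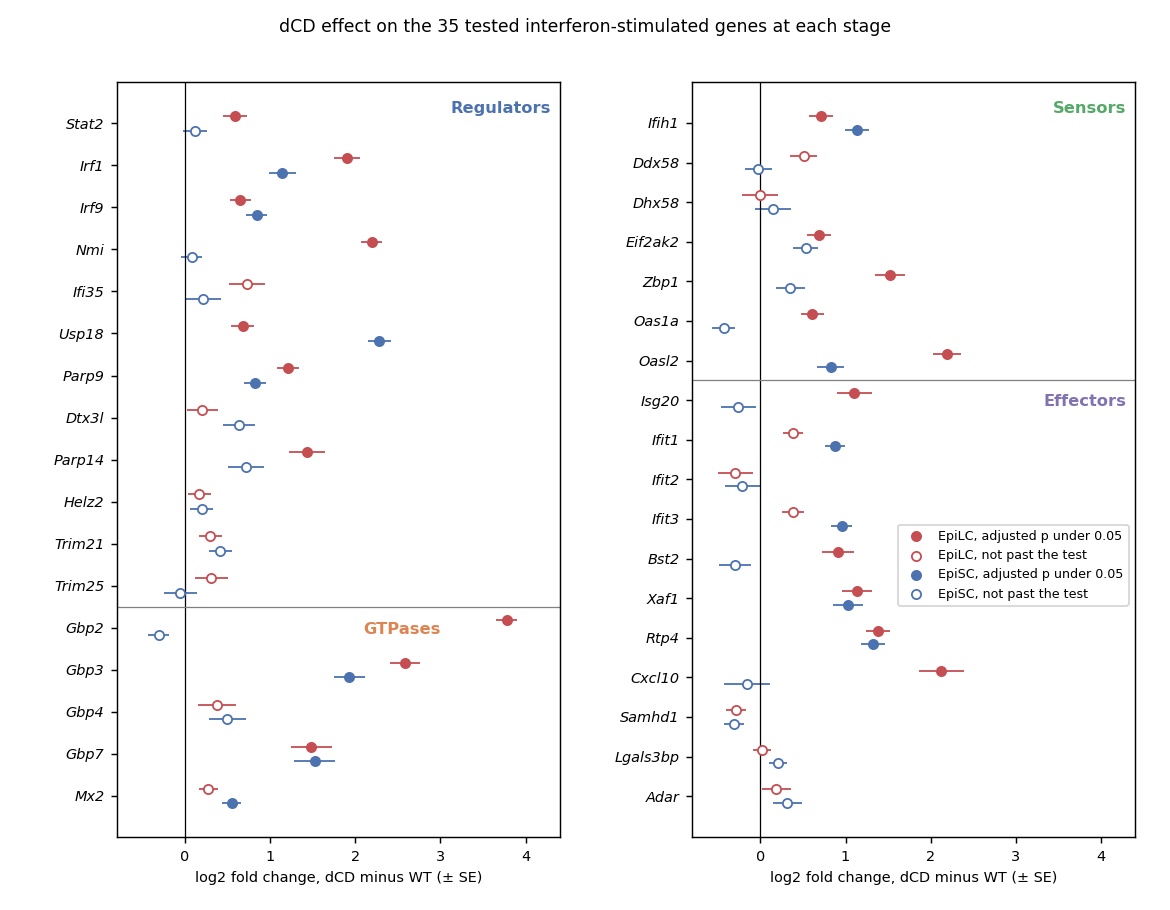
Log2 fold change (dCD minus WT) with its standard error for the 35 tested genes in EpiLC (red) and EpiSC (blue), with filled points at an adjusted p under 0.05. The EpiLC points of Gbp2 (3.78), Gbp3 (2.58) and Nmi (2.19) lie farthest from 0 among the EpiLC points of regulators and GTPases, and the EpiSC points of Gbp2 (-0.31) and Nmi (0.08) are open.

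Among all tested genes 7.56% rose in dCD EpiLC and 7.57% in dCD EpiSC. Among regulators, 7 of the 12 tested rose in dCD EpiLC and 4 in dCD EpiSC. Irf1 (ENSMUSG00000018899, chromosome 11, 53770014 to 53778374 in GRCm38), a transcription factor gene that interferon gamma induces, was the most highly expressed of them. It had 53.9 and 49.9 in dCD EpiLC, against 12.9 and 13.3 in WT EpiLC (log2 fold change 1.90 ± 0.15, adjusted p = 0.000848). It also rose in EpiSC, with 109.5 and 108 in dCD EpiSC, against 57.6 and 41.3 in WT EpiSC (1.14 ± 0.15, adjusted p = 0.00432), so that dCD libraries lay above WT libraries at both stages. Irf9, the DNA-binding subunit of ISGF3, had 4.66 and 4.58 in dCD EpiLC, against 2.72 and 2.47 in WT EpiLC (0.65 ± 0.12, adjusted p = 0.0209). Its EpiSC values were 10.0 and 11.2 in dCD EpiSC, against 5.17 and 5.76 in WT EpiSC (0.84 ± 0.12, adjusted p = 0.0060), again without overlap. Stat2, another ISGF3 subunit, had 11 and 14.5 in dCD EpiLC, against 7.95 and 8.19 in WT EpiLC (0.59 ± 0.14, adjusted p = 0.0445). In EpiSC it had 15.7 and 14.8 in dCD EpiSC, against 14.1 and 13.8 in WT EpiSC (0.12 ± 0.14, adjusted p = 0.659), with no overlap and no call.

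Nmi, which encodes a binding partner of MYC and STAT proteins, was low in WT EpiLC alone among the groups. It had 7.16 and 6.28 in dCD EpiLC, against 0.633 and 0.738 in WT EpiLC, a ratio of means of 9.81 (log2 fold change 2.19 ± 0.12, adjusted p = 0.000251). In EpiSC the libraries overlapped, with 6.7 and 6.23 in dCD EpiSC, against 6.31 and 5.83 in WT EpiSC (0.08 ± 0.12, adjusted p = 0.761). Usp18, whose protein removes ISG15 from its targets and dampens type I interferon signalling, was highest in dCD EpiSC. Its values were 0.657 and 0.665 in dCD EpiLC, against 0.0318 and 0.0479 in WT EpiLC (0.68 ± 0.13, adjusted p = 0.0243), all under 1. It reached 31.2 and 31.7 in dCD EpiSC, against 6.38 and 5.04 in WT EpiSC (2.28 ± 0.13, adjusted p = 0.000368), the largest EpiSC log2 fold change of the 35 genes. The ratio of means of Usp18 was larger in EpiLC, at 16.6, than in EpiSC, at 5.51.

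Parp9, Dtx3l and Parp14 lie next to each other on chromosome 16. Parp9, which encodes an ADP-ribosyltransferase that works with DTX3L, had 14.5 and 15.8 in dCD EpiLC, against 6.53 and 5.48 in WT EpiLC (1.21 ± 0.13, adjusted p = 0.00227). The EpiSC values of Parp9 were 34.2 and 35.4 in dCD EpiSC, against 20.8 and 17.8 in WT EpiSC (0.82 ± 0.13, adjusted p = 0.00735), without overlap at either stage. Parp14, another ADP-ribosyltransferase gene, had 1.82 and 3.2 in dCD EpiLC, against 0.291 and 0.266 in WT EpiLC (1.43 ± 0.21, adjusted p = 0.00852). Its EpiSC libraries did not overlap either but missed the threshold, with 4.76 and 5.55 in dCD EpiSC, against 3.17 and 2.37 in WT EpiSC (0.71 ± 0.21, adjusted p = 0.0701). Dtx3l, the ubiquitin ligase gene of this locus (described here after its values were seen), overlapped in EpiLC, with 5.75 and 8.5 in dCD EpiLC, against 6.48 and 5.5 in WT EpiLC (0.20 ± 0.18, adjusted p = 0.588). In EpiSC Dtx3l did not overlap, with 14.6 and 16.2 in dCD EpiSC, against 10.1 and 9.05 in WT EpiSC (0.63 ± 0.18, adjusted p = 0.0651). Dtx3l and Parp9 overlap at their 5′ ends on opposite strands, and 7.52% of the 31-base words of Dtx3l transcripts also occur in Parp9. The remaining tested regulators (Ifi35, Helz2, Trim21 and Trim25) had EpiLC fold changes between 0.17 and 0.72 and EpiSC fold changes between -0.05 and 0.41 with no call, and Irf7 did not pass the filter.

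Several of these calls were lost without a single library. In EpiLC the call of Stat2 was lost without EpiLC WT replicate 1 or 2 or any EpiSC library (adjusted p between 0.091 and 0.219), that of Usp18 without EpiLC WT replicate 1 or 2 or EpiSC dCD replicate 1 or 2 (adjusted p between 0.0508 and 0.152), that of Irf9 without EpiLC WT replicate 1 or 2 or EpiSC WT replicate 1 or 2 (adjusted p between 0.0511 and 0.135) and that of Parp14 without EpiLC WT replicate 1 or 2 (adjusted p between 0.0613 and 0.0636). In EpiSC the call of Irf9 was lost without EpiSC dCD replicate 2 or EpiSC WT replicate 1 (adjusted p between 0.0529 and 0.0532) and that of Parp9 without EpiSC dCD replicate 2 or EpiSC WT replicate 2 (adjusted p between 0.0649 and 0.0785).

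Guanylate-binding proteins are interferon-induced GTPases that attack the membranes around pathogens. Of the 5 tested GTPases 3 rose in dCD EpiLC (Gbp2, Gbp3 and Gbp7) and 3 in dCD EpiSC (Gbp3, Gbp7 and Mx2). The shares over all tested genes were 7.56% and 7.57%. Gbp2 (ENSMUSG00000028270, chromosome 3, 142620602 to 142638008 in GRCm38) showed the largest fold change of the 35 genes in EpiLC. It had 23.8 and 26.8 in dCD EpiLC, against 0.857 and 0.972 in WT EpiLC, a ratio of means of 27.7 (log2 fold change 3.78 ± 0.13, adjusted p = 3.56e-05). In EpiSC it was high in both genotypes, and both dCD libraries lay below both WT libraries without a call, with 64.9 and 67.5 in dCD EpiSC, against 90.8 and 74.6 in WT EpiSC (-0.31 ± 0.13, adjusted p = 0.163). Gbp3, in the same cluster of chromosome 3 and with a pair of ISRE in its window above, had 6.61 and 6.96 in dCD EpiLC, against 0.182 and 0.423 in WT EpiLC (2.58 ± 0.18, adjusted p = 0.000466). Unlike those of Gbp2, its dCD libraries were the higher ones in EpiSC as well, with 34.1 and 39.9 in dCD EpiSC, against 10.4 and 7.62 in WT EpiSC (1.93 ± 0.18, adjusted p = 0.00128). Gbp7, of the same cluster, was lower in level, with 1.47 and 3.25 in dCD EpiLC, against 0.204 and 0.113 in WT EpiLC (1.48 ± 0.24, adjusted p = 0.0115). In EpiSC Gbp7 had 9.73 and 9.64 in dCD EpiSC, against 2.83 and 2.61 in WT EpiSC (1.52 ± 0.24, adjusted p = 0.00789), without overlap at either stage. Gbp5, also of this cluster, stayed between 0.195 and 0.576 in all 8 libraries.

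Mx2, a dynamin-like GTPase gene of antiviral defence, had 2.31 and 2.49 in dCD EpiSC, against 1.41 and 1.25 in WT EpiSC (0.55 ± 0.11, adjusted p = 0.0193). In EpiLC it was near 0, with 0.259 and 0.203 in dCD EpiLC, against 0.0113 and 0.0234 in WT EpiLC (0.27 ± 0.11, adjusted p = 0.183), where the groups did not overlap. Gbp4 was called at neither stage (log2 fold changes of 0.37 in EpiLC and 0.50 in EpiSC), and Mx1 and Gbp5 did not pass the filter. The call of Gbp7 was lost in EpiLC without EpiLC WT replicate 1 or 2 (adjusted p between 0.0721 and 0.0784) and in EpiSC without EpiSC dCD replicate 2 or EpiSC WT replicate 2 (adjusted p between 0.0591 and 0.0736), and that of Mx2 in EpiSC without any EpiSC library (adjusted p between 0.0581 and 0.135). Of the 31-base words of each transcript set, 14.7% in Gbp7, 5.64% in Gbp3 and 4.85% in Gbp2 also occur in other genes, most often in Gm43802 for Gbp7 (10.8%), in Gbp7 for Gbp3 (5.52%) and in Gbp2b for Gbp2 (4.61%).

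Of the sensors, 5 of the 7 tested rose in dCD EpiLC and 2 in dCD EpiSC (Ifih1 and Oasl2), where 7.56% and 7.57% of all tested genes did. Eif2ak2, the gene of the double-stranded RNA kinase PKR and the most highly expressed sensor, had 10.2 and 13.5 in dCD EpiLC, against 7.16 and 6.69 in WT EpiLC (0.69 ± 0.15, adjusted p = 0.0299). In EpiSC it had 19.4 and 21.0 in dCD EpiSC, against 14.2 and 13.1 in WT EpiSC (0.53 ± 0.15, adjusted p = 0.0545), with no overlap and just short of the threshold. Ifih1, the gene of the double-stranded RNA sensor MDA5, had 0.725 and 0.86 in dCD EpiLC, against 0.153 and 0.0405 in WT EpiLC (0.71 ± 0.14, adjusted p = 0.026). Its EpiSC values were 5.42 and 6.56 in dCD EpiSC, against 2.4 and 1.96 in WT EpiSC (1.14 ± 0.14, adjusted p = 0.00367), and the genotypes did not overlap at either stage.

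Zbp1, whose protein senses Z-form nucleic acid, had 2.94 and 2.07 in dCD EpiLC, against 0.297 and 0.131 in WT EpiLC (1.52 ± 0.18, adjusted p = 0.00315). In EpiSC it had 2.21 and 2.25 in dCD EpiSC, against 1.82 and 1.27 in WT EpiSC (0.35 ± 0.18, adjusted p = 0.249), with no overlap and no call. Oasl2, a relative of the oligoadenylate synthetases that activate the RNA-cleaving enzyme RNase L, had 6.12 and 4.71 in dCD EpiLC, against 0.441 and 0.348 in WT EpiLC, a ratio of means of 13.7 (log2 fold change 2.19 ± 0.16, adjusted p = 0.000619). Its EpiSC values were 16.3 and 20.4 in dCD EpiSC, against 10.2 and 9.59 in WT EpiSC (0.82 ± 0.16, adjusted p = 0.0179), without overlap. Oas1a, an oligoadenylate synthetase gene, had 1.51 and 1.38 in dCD EpiLC, against 0.536 and 0.67 in WT EpiLC (0.61 ± 0.13, adjusted p = 0.034). In EpiSC its dCD libraries were the lower ones without a call, with 5.18 and 6.2 in dCD EpiSC, against 8.43 and 7.6 in WT EpiSC (-0.43 ± 0.13, adjusted p = 0.0801). The value of Oas1a is uncertain as that of a single gene, because 68.7% of its 31-base words also occur in Oas1g.

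Ddx58 and Dhx58, the genes of the RNA sensors RIG-I and LGP2, were called at neither stage, with EpiLC fold changes of 0.51 and -0.01. Oas2, Oas3 and Oasl1 did not pass the filter. Oasl1, singled out after its values were seen, was called in EpiLC when no filter was applied, with 1.19 and 0.67 in dCD EpiLC, against 0.090 and 0.102 in WT EpiLC (0.80 ± 0.12, adjusted p = 0.0238). In EpiLC the call of Eif2ak2 was lost without EpiLC WT replicate 1 or 2 or any EpiSC library (adjusted p between 0.0631 and 0.157), that of Ifih1 without EpiLC WT replicate 1 or 2 or EpiSC WT replicate 1 or 2 (adjusted p between 0.0507 and 0.154) and that of Oas1a without EpiLC dCD replicate 1, EpiLC WT replicate 1 or 2 or any EpiSC library (adjusted p between 0.0501 and 0.211). In EpiSC the call of Oasl2 was lost without EpiSC dCD replicate 2 or EpiSC WT replicate 1 or 2 (adjusted p between 0.0872 and 0.135).

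Of the 11 tested effectors, 5 rose in dCD EpiLC (Isg20, Bst2, Xaf1, Rtp4 and Cxcl10) and 4 in dCD EpiSC (Ifit1, Ifit3, Xaf1 and Rtp4). Of the 11, 9 passed the filter by their WT libraries alone. Ifit1 and Ifit3 passed it only through the dCD EpiSC libraries in which they were high, so their part in the EpiSC count is no independent support. The shares over all tested genes were 7.56% in EpiLC and 7.57% in EpiSC. Rtp4, a receptor transporter gene that interferon induces, had 1.79 and 1.97 in dCD EpiLC, against 0.101 and 0.106 in WT EpiLC, a ratio of means of 18.1 (log2 fold change 1.38 ± 0.14, adjusted p = 0.00221). Its EpiSC values were 10.7 and 13.4 in dCD EpiSC, against 4.48 and 3.91 in WT EpiSC (1.32 ± 0.14, adjusted p = 0.00222). Xaf1, whose protein opposes the apoptosis inhibitor XIAP, had 4.56 and 4.39 in dCD EpiLC, against 1.14 and 1.89 in WT EpiLC (1.14 ± 0.18, adjusted p = 0.0102). Xaf1 also rose in EpiSC, with 15.0 and 17.3 in dCD EpiSC, against 8.1 and 6.75 in WT EpiSC (1.03 ± 0.18, adjusted p = 0.0114), and neither gene overlapped between genotypes at either stage.

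Cxcl10, a chemokine gene that attracts T cells, had 6.15 and 4.35 in dCD EpiLC, against 0.715 and 0.17 in WT EpiLC (2.13 ± 0.27, adjusted p = 0.00447). In EpiSC the libraries overlapped, with 3.01 and 5.03 in dCD EpiSC, against 4.31 and 4.66 in WT EpiSC (-0.16 ± 0.27, adjusted p = 0.78). Isg20, an RNA exonuclease gene, had 1.23 and 1.61 in dCD EpiLC, against 0.195 and 0.0575 in WT EpiLC (1.10 ± 0.21, adjusted p = 0.0201). It also overlapped in EpiSC, with 3.5 and 5.64 in dCD EpiSC, against 5.99 and 5.14 in WT EpiSC (-0.26 ± 0.21, adjusted p = 0.486). Bst2 had 339.8 and 243 in dCD EpiLC, against 138 and 167 in WT EpiLC (0.91 ± 0.18, adjusted p = 0.026). In EpiSC its dCD libraries were the lower ones without a call, with 227 and 200.0 in dCD EpiSC, against 246 and 279.7 in WT EpiSC (-0.30 ± 0.18, adjusted p = 0.358).

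Ifit1 and Ifit3, whose products are part of a complex that binds viral RNA, were low at both stages. Ifit1 had 2.12 and 2.43 in dCD EpiSC, against 0.817 and 0.753 in WT EpiSC (0.87 ± 0.12, adjusted p = 0.0043). In EpiLC it had 0.338 and 0.391 in dCD, while the WT libraries were listed at 0 and 0.0952 (0.38 ± 0.12, adjusted p = 0.095). Ifit3 had 2.27 and 2.28 in dCD EpiSC, against 0.658 and 0.718 in WT EpiSC (0.96 ± 0.13, adjusted p = 0.00417), and 61.8% of its 31-base words also occur in Ifit3b, so its value cannot be assigned to this copy alone. In EpiLC it had 0.734 and 0.475 in dCD EpiLC, against 0.178 and 0.278 in WT EpiLC (0.38 ± 0.13, adjusted p = 0.117), without overlap. Samhd1, a nucleotide hydrolase gene singled out after its values were seen, was the gene with both dCD libraries below both WT libraries in EpiLC. It had 50.3 and 60.7 in dCD EpiLC, against 70.8 and 64.6 in WT EpiLC (-0.29 ± 0.12, adjusted p = 0.191). The order was the same in EpiSC, with 67.9 and 66.5 in dCD EpiSC, against 87.7 and 80.1 in WT EpiSC (-0.31 ± 0.12, adjusted p = 0.131), and no call was made at either stage. Under alternatives Samhd1 was called lower 7 times in EpiSC and 2 times in EpiLC (without EpiLC dCD replicate 2 and after removal of the length trend). Ifit2, Lgals3bp and Adar were called at neither stage, with fold changes between -0.30 and 0.32, and Ifi44 and Rsad2 did not pass the filter.

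In EpiLC the call of Isg20 was lost without EpiLC WT replicate 1 or 2 (adjusted p between 0.0931 and 0.123), that of Bst2 without EpiLC WT replicate 1 or 2 or any EpiSC library (adjusted p between 0.0552 and 0.169) and that of Xaf1 without EpiLC WT replicate 1 (adjusted p = 0.0679). That of Cxcl10 was lost without both EpiLC WT replicate 2 and EpiLC dCD replicate 1 (adjusted p = 0.0584). In EpiSC the call of Xaf1 was lost without EpiSC dCD replicate 2 or EpiSC WT replicate 2 (adjusted p between 0.0914 and 0.105).

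The difference of the dCD effect between stages was tested as the EpiSC effect less the EpiLC effect. Of the 35 genes 8 had a negative difference (Nmi, Gbp2, Zbp1, Oas1a, Oasl2, Isg20, Bst2 and Cxcl10) and 1 a positive one (Usp18), where 6.72% of all tested genes had a negative difference and 3.66% a positive one (10.4% in all). The median difference of the 35 genes was -0.11 on the log2 scale, beside -0.04 over all tested genes. Both the split and this median depended on the added value. With 5 added, 4 differences were positive and 5 negative (median 0.04), where 540 and 852 of the 12717 tested genes were. With 0.1 added 0 were positive and 11 negative (median -0.60), where 353 and 783 of all tested genes were. Without each library in turn the median lay between -0.23 and -0.04. Without the filter, 6 differences were negative and 1 was positive among the 43 genes, where 3.75% and 2.17% of all genes were. Of these 6, Oas3 was outside the 35 genes (-0.51 ± 0.10, adjusted p = 0.0421 by limma). It had 0.861 and 0.901 in dCD EpiLC, against 0.529 and 0.668 in WT EpiLC, and 0.0467 and 0.125 in dCD EpiSC, against 0.336 and 0.284 in WT EpiSC. Gbp2 had the largest difference (-4.09 ± 0.18, adjusted p = 0.000373), followed by Cxcl10 (-2.28 ± 0.38, adjusted p = 0.0133) and Nmi (-2.11 ± 0.18, adjusted p = 0.00159). The difference of Usp18 was positive (1.61 ± 0.19, adjusted p = 0.00419) on the scale with 1 added, while its ratio of means was larger in EpiLC (16.6) than in EpiSC (5.51). For each of these 9 genes WT EpiLC held the lowest group mean. Of the 10 genes called in EpiLC but not in EpiSC, 7 differed between stages by this test, and Eif2ak2, Parp14 and Stat2 did not pass it. Ifit1, Ifit3 and Mx2 were called in EpiSC but not in EpiLC, and for none of these 3 was the difference called by limma (adjusted p between 0.095 and 0.345).

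The differences of Gbp2, Nmi and Usp18 were called without each library in turn, and that of Usp18 was lost with 0.1 added in place of 1 (log2 0.0038, adjusted p = 0.997). With 5 added, the differences of Oasl2 (-0.30, adjusted p = 0.292), Isg20 (-0.47, adjusted p = 0.0996) and Zbp1 (-0.38, adjusted p = 0.0579) were lost. That of Zbp1 was lost without EpiLC WT replicate 1 or 2 or any EpiSC library (adjusted p between 0.0634 and 0.109), that of Bst2 without EpiLC WT replicate 1 or 2 or any EpiSC library (adjusted p between 0.0634 and 0.14), those of Oas1a, Oasl2 and Isg20 without EpiLC WT replicate 1 or 2, EpiSC dCD replicate 1 or EpiSC WT replicate 1 or 2 (adjusted p between 0.0504 and 0.111), and that of Cxcl10 without EpiSC WT replicate 1 or 2 (adjusted p between 0.0509 and 0.0679). The number of genes called for the difference was 4 without EpiLC WT replicate 1, EpiLC WT replicate 2, EpiSC dCD replicate 1 or EpiSC WT replicate 2, and 3 without EpiSC WT replicate 1.

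**Figure D4:**
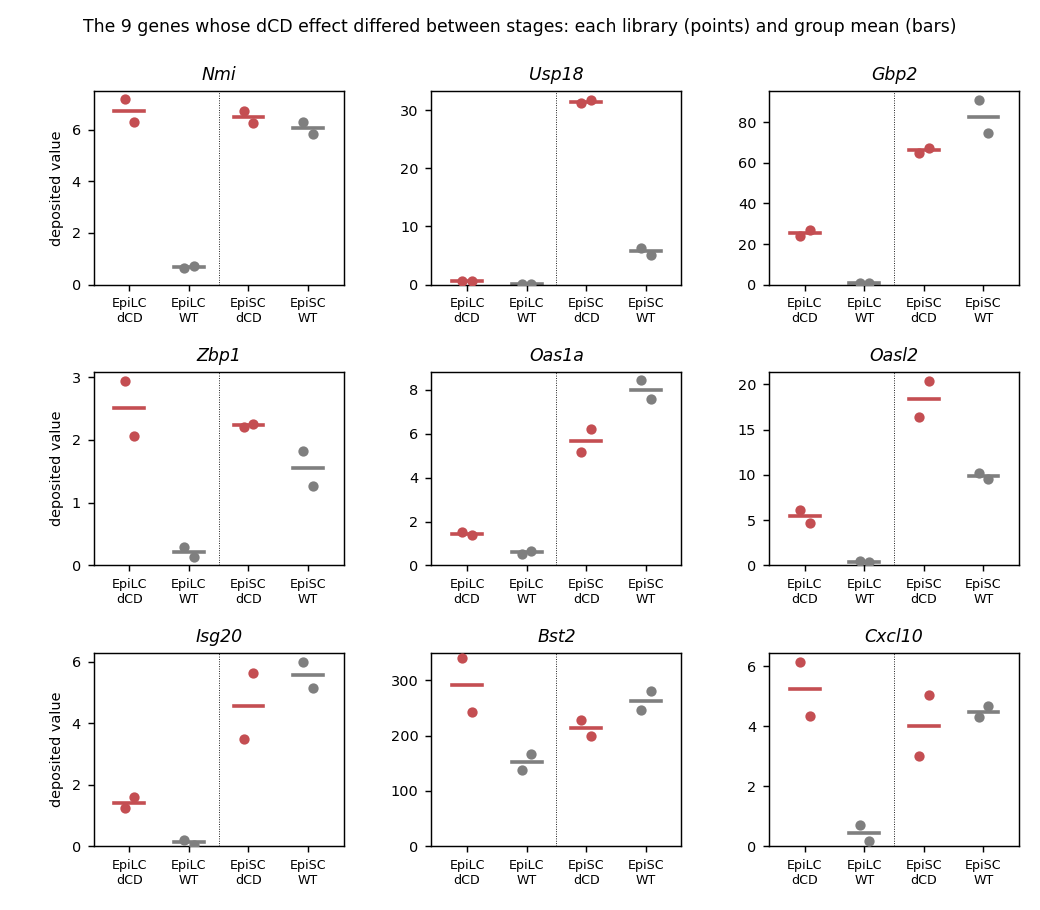
Deposited values of the 9 genes whose dCD effect differed between stages, in each library (points) with group means (bars), dCD in red and WT in grey, each panel on its own axis from 0. WT EpiLC has the lowest mean in every panel, and in the panel of Usp18 dCD EpiSC (31.2 and 31.7) stands above the other groups.

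Genes upstream of the set and further interferon-inducible genes were counted from lists by function. Beside the count of each list stand the shares of all tested genes, 7.56% higher and 2.57% lower in EpiLC and 7.57% and 6.91% in EpiSC. Interferon genes themselves were at or near 0. Of 12 ligand genes 6 were listed at 0 in all 8 libraries, and the summed level of the 12 was 0.081 and 0.151 in dCD EpiLC, against 0.0438 and 0 in WT EpiLC, and 0.293 and 0.17 in dCD EpiSC, against 0.141 and 0.113 in WT EpiSC. No ligand gene passed the filter, and the depth behind these values is unknown. Of the 6 receptor genes tested, 1 rose in EpiLC and 0 changed in EpiSC (medians of 0.44 and 0.34), where 3 were higher and 0 lower at an unadjusted limma p under 0.05. Il10rb, a subunit of the interferon lambda and interleukin-10 receptors, had 1.62 and 1.67 in dCD EpiLC, against 0.753 and 0.566 in WT EpiLC (0.68 ± 0.14, adjusted p = 0.0305), without overlap. This call was lost without EpiLC dCD replicate 1, EpiLC WT replicate 1 or 2 or EpiSC WT replicate 1 or 2 (adjusted p between 0.0586 and 0.174). Ifnar1, Ifnar2 and Ifnlr1, subunits of the type I and type III receptors, were not called, with EpiLC fold changes of 0.29, 0.59 and 0.38.

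In JAK-STAT signalling 4 of 10 tested genes rose in dCD EpiLC, and 2 rose and 1 fell in dCD EpiSC (medians of 0.40 and 0.03). Of all tested genes 7.56% rose in EpiLC, and 7.57% rose and 6.91% fell in EpiSC. Stat3, which carries signals of the LIF receptor, had 14.5 and 19.1 in dCD EpiLC, against 7.41 and 5.99 in WT EpiLC (1.20 ± 0.17, adjusted p = 0.00743). Socs3, a feedback inhibitor of JAK kinases, had 13.4 and 15.0 in dCD EpiLC, against 3.08 and 3.93 in WT EpiLC (1.76 ± 0.18, adjusted p = 0.00209), and its libraries overlapped in EpiSC. Ptpn6, a phosphatase gene that restrains cytokine signalling, fell in EpiSC, with 19.7 and 18.0 in dCD EpiSC, against 26.9 and 28.5 in WT EpiSC (-0.53 ± 0.10, adjusted p = 0.0163). Jak2, named after its values were seen, rose at both stages (0.58 and 0.57). The call of Stat3 was lost without EpiLC WT replicate 2 (adjusted p = 0.0594) and that of Ptpn6 without any EpiSC library (adjusted p between 0.058 and 0.147). That of Jak2 was lost in EpiLC without EpiLC dCD replicate 2, EpiLC WT replicate 1 or 2 or any EpiSC library (adjusted p between 0.0636 and 0.218) and in EpiSC without EpiLC WT replicate 1 or 2 or any EpiSC library (adjusted p between 0.0729 and 0.213).

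Among 10 tested adaptors and relays of nucleic acid sensing, 2 rose in dCD EpiLC and 1 in dCD EpiSC (medians of 0.10 and 0.27). Of all tested genes 7.56% rose in EpiLC and 7.57% in EpiSC, so the EpiSC count is near the share over all genes. Zc3hav1, the gene of the antiviral zinc finger protein ZAP, had 3.14 and 4.08 in dCD EpiLC, against 1.43 and 1.57 in WT EpiLC (0.88 ± 0.18, adjusted p = 0.0255). It rose in EpiSC as well, with 51.2 and 56.2 in dCD EpiSC, against 22.9 and 16.8 in WT EpiSC (1.41 ± 0.18, adjusted p = 0.00359). Myd88, an adaptor of Toll-like receptors, had 10.4 and 9.99 in dCD EpiLC, against 4.99 and 5.4 in WT EpiLC (0.85 ± 0.15, adjusted p = 0.017), and Tlr3 and Trex1 were called at neither stage. In EpiLC the call of Zc3hav1 was lost without EpiLC WT replicate 1 or 2 or EpiSC dCD replicate 1 or 2 (adjusted p between 0.056 and 0.153) and that of Myd88 without EpiLC WT replicate 1 or 2 (adjusted p between 0.0834 and 0.123).

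Of 14 tested interferon-inducible genes outside the set, 8 rose in dCD EpiLC and 4 in dCD EpiSC, and 0 fell by limma (medians of 1.33 and 0.16, with 0 lower in EpiLC and 1 in EpiSC at an unadjusted p under 0.05). Of the 14 genes 10 passed the filter by their WT libraries alone, and of those called Phf11d and Tgtp1 passed only with dCD libraries. Irgm1, an immunity-related GTPase gene, had 32.7 and 35.8 in dCD EpiLC, against 3.37 and 3.51 in WT EpiLC (2.99 ± 0.16, adjusted p = 0.000191). In EpiSC Irgm1 had 101 and 113 in dCD EpiSC, against 44.2 and 32.2 in WT EpiSC (1.47 ± 0.16, adjusted p = 0.00213), without overlap at either stage. Igtp, another gene of this family, had 7.0 and 6.76 in dCD EpiLC, against 1.6 and 1.79 in WT EpiLC (1.55 ± 0.12, adjusted p = 0.000761). Phf11d, a PHD finger gene, had 6.77 and 5.5 in dCD EpiLC, against 0.802 and 0.67 in WT EpiLC (2.03 ± 0.13, adjusted p = 0.000378) and was under 1 in all EpiSC libraries. The EpiLC calls of Irgm1, Igtp and Phf11d and the EpiSC call of Irgm1 were kept without each library in turn.

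Of 12 tested genes of antigen presentation by MHC class I, which interferon gamma is known to induce, 7 rose in dCD EpiLC and 1 in dCD EpiSC, and 0 fell by limma (medians of 0.78 and 0.32, with 0 lower at either stage at an unadjusted p under 0.05). Psmb8, an immunoproteasome subunit gene, had 9.59 and 6.28 in dCD EpiLC, against 0.744 and 0.817 in WT EpiLC (2.30 ± 0.19, adjusted p = 0.00101). Psmb8 rose in EpiSC as well, with 29.0 and 28.7 in dCD EpiSC, against 18.8 and 15.2 in WT EpiSC (0.74 ± 0.19, adjusted p = 0.0485). Tap2, a subunit of the peptide transporter, had 4.89 and 4.64 in dCD EpiLC, against 0.51 and 0.902 in WT EpiLC (1.77 ± 0.17, adjusted p = 0.00162). B2m, the light chain of class I molecules, had 71.4 and 57.9 in dCD EpiLC, against 33.3 and 35.6 in WT EpiLC (0.88 ± 0.12, adjusted p = 0.00701). Psme2, a proteasome activator gene, had 373 and 244 in dCD EpiLC, against 103 and 124 in WT EpiLC (1.41 ± 0.20, adjusted p = 0.00768), and none of these 4 genes overlapped between genotypes in EpiLC. The EpiSC call of Psmb8 was lost without EpiLC WT replicate 1 or 2 or any EpiSC library (adjusted p between 0.0847 and 0.298), and the EpiLC calls of B2m and Psme2 were lost without EpiLC WT replicate 1 (adjusted p between 0.0667 and 0.068).

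**Figure D5:**
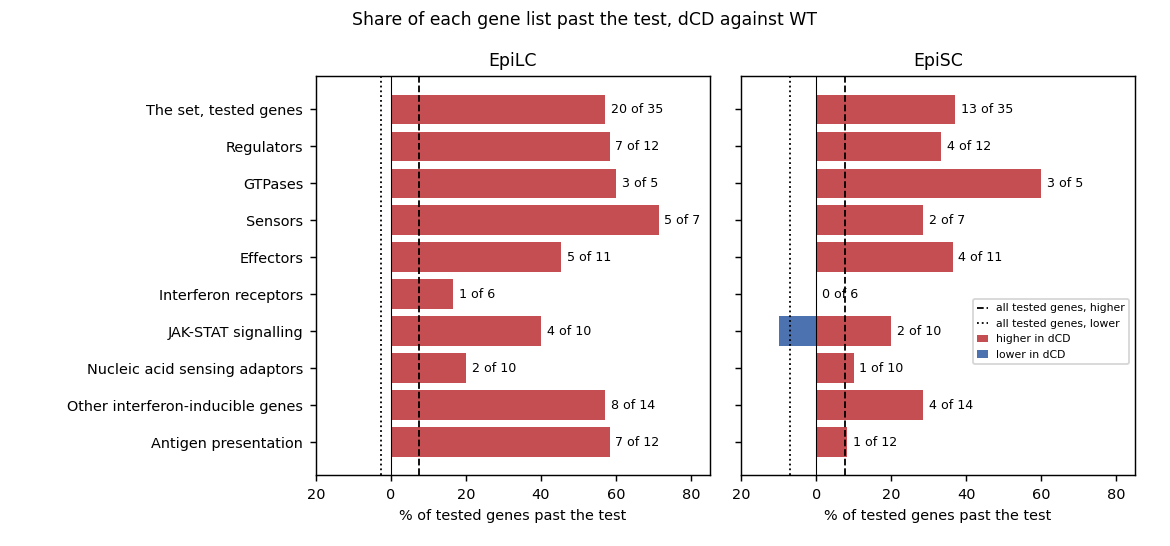
Share of the tested genes of each list that passed the test in dCD against WT, in EpiLC (left) and EpiSC (right), higher genes right of 0 and lower genes left of it, with the shares over all tested genes as dashed (higher, 7.56% and 7.57%) and dotted (lower, 2.57% and 6.91%) lines. In EpiLC the bars of the set (20 of 35) and of antigen presentation (7 of 12) pass the dashed line, and in EpiSC antigen presentation (1 of 12) ends beside it.

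Markers of other cells and states were summed by list. Beside the counts of calls below stand the shares of all tested genes, 7.56% higher and 2.57% lower in dCD EpiLC and 7.57% and 6.91% in dCD EpiSC. Blood and macrophage markers summed to 32.3 and 26.1 in dCD EpiLC, against 17.5 and 22.8 in WT EpiLC, and to 5.5 and 7.1 in dCD EpiSC, against 8.53 and 8.48 in WT EpiSC. Of these 11 markers Tyrobp was at 0 in all libraries, Ptprc, Csf1r, Lyz2, Adgre1 and Cd52 were at most 0.194 in any, Itgam and Fcer1g were at most 0.498, and Laptm5 was the 1 of 3 tested that was called, higher in dCD EpiLC and lower in dCD EpiSC. Most of the EpiLC sum came from Coro1a, with 18.9 and 14.5 in dCD EpiLC, against 12.6 and 18.0 in WT EpiLC, and from Cd68, with 6.62 and 4.38 in dCD EpiLC, against 3.28 and 3.46 in WT EpiLC. Fibroblast and feeder markers summed to 18.8 and 22.7 in dCD EpiLC, against 74.8 and 71.0 in WT EpiLC. In EpiSC they summed to 49.4 and 51.1 in dCD, against 28.2 and 28.3 in WT. Of 8 tested, 3 were lower in dCD EpiLC and 3 higher in dCD EpiSC (of these Pdgfra passed the filter only with dCD libraries). Most of the WT EpiLC sum came from Col3a1, with a mean of 42.5 in WT EpiLC, against 1.79 in dCD EpiLC. The markers did not move together. Of the 9 markers, 6 had both dCD EpiLC libraries below both WT EpiLC libraries, and 2 (Col1a2 and Pdgfra) had them above. Of all genes above 0 in any library, 14.9% had them below and 22.6% above. In EpiSC 4 had both dCD libraries above both WT libraries, and 2 (Col1a1 and Thy1) had them below. Over all genes these shares were 26.4% above and 26% below, so the count below is near the share over all genes. Naive pluripotency genes summed to 53.0 and 49.2 in dCD EpiLC, against 19.2 and 19.1 in WT EpiLC (6 of 7 tested rose, where 4 of the 7 passed the filter by WT libraries alone and Esrrb and Tbx3, counted as risen, did not), and to 13.2 and 21.6 in dCD EpiSC, against 9.08 and 8.55 in WT EpiSC (3 rose and 1 fell). Genes of the 2-cell-like state summed to 41.3 and 36.7 in dCD EpiLC, against 1.32 and 1.25 in WT EpiLC (5 of 5 tested rose, 0 of them passing the filter by WT libraries alone), and to 0.408 and 0.40 in dCD EpiSC, against 0.311 and 0.343 in WT EpiSC. Of 7 pluripotent and primed epiblast markers, all tested, 2 were higher in dCD EpiLC (Sox2 and T) and 2 in dCD EpiSC (T and Eomes), and 0 were lower. T had log2 fold changes of 1.93 in EpiLC and 0.49 in EpiSC (limma, adjusted p = 0.000372 and 0.0428), and Eomes had 1.80 in EpiSC (adjusted p = 0.00398). Fgf5 (-0.43) and Dnmt3b (-0.61) had both dCD EpiLC libraries below both WT EpiLC libraries without a call. The part of these cell states in the changes of the interferon-stimulated genes was not tested.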

How the data were processed

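Polyadenylated RNA of 8 libraries was sequenced by the authors, who quantified transcripts with kallisto and sleuth against mouse mm10 (Ensembl 96). The deposited values, in separate EpiLC and EpiSC tables, are headed TPM, for which the tests were planned. They were treated as a signal because 1 column sum is larger than plain TPM allow, and any further scaling by the authors is not given in the sources used here. Column sums ran between 813537 and 1033290, 42.2% of values were 0, and read depth is unknown, so no counting interval is given. The 6 columns of embryonic stem cells matched no sample and were not used. Of 32334 gene IDs 32092 (99.3%) matched GENCODE M21 (GRCm38), which gave symbols and coordinates. Isg15, Socs1 and Sting1 are not analysed here.

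Groups were taken from the sample labels. A model with 1 mean per group and a mean-variance trend was fitted with limma 3.58.1 in R 4.3.3 on log2(value + 1) to 12717 genes that reached 1 in 2 or more of the 8 libraries, and p values were adjusted over all of them (Benjamini-Hochberg). All 8 libraries shared 1 estimate of the spread with 4 residual degrees of freedom, and the tests were tried on simulated data first. Of 100 genes changed by log2 1, 64 were recovered in EpiLC and 67 in EpiSC, with 12 false calls at each stage. The simulated noise was independent with 1 spread per gene in all libraries. It therefore cannot show how the tests behave with the wider, correlated replicate differences of EpiLC. The members and gene lists were chosen with earlier results of these data known. Values in every library are given for members called in at least 1 contrast (up to 8 per role by fold change) and for the most highly expressed member of each role, and from each further list up to 4 genes with the smallest p are named, except for 1 gene that is counted in its list but not reported here. Alternatives were other pseudocounts, filters and scalings, each stage alone, weights per group, a replicate block and leaving out each library. The crossed block, the removal of a transcript length trend and the filter on WT libraries were chosen after seeing the data. Promoter windows and motif matches were read from RefSeq sequences, and figures were drawn with matplotlib 3.10.9 (Python 3.11.15).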

Additional observations from a re-analysis of the deposited data

Results flagged for a closer look

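The dCD effect differed between the stages by the test of the difference itself (EpiSC effect less EpiLC effect, limma, log2 scale, adjusted p under 0.05) for 9 genes of the set. The differences were -4.09 for Gbp2, -2.28 for Cxcl10, -2.11 for Nmi, -1.37 for Oasl2, -1.36 for Isg20, -1.21 for Bst2, -1.17 for Zbp1, -1.04 for Oas1a and 1.61 for Usp18. The difference of Usp18, whose EpiLC values were all under 1, depended on the added 1. It was 0.0038 with 0.1 added, and the ratio of means was 16.6 in EpiLC and 5.51 in EpiSC. In the further lists the difference was -3.36 for Ifitm1, -1.91 for Phf11d, -1.79 for Socs3, -1.64 for Ifitm3, -1.56 for Psmb8, -1.52 for Tap2, -1.51 for Irgm1, -1.36 for Igtp and -1.22 for Irgm2. Of the further lists, Ifitm3, Irgm2 and Psmb8 lost this call without at least 1 library, and their highest adjusted p was 0.105 for Ifitm3 (without EpiLC WT replicate 1), 0.0925 for Irgm2 (rescaled to a common total) and 0.154 for Psmb8 (5 added in place of 1). With the replicate number as a block Irgm1 (0.0614), Igtp (0.0571) and Tap2 (0.0568) lost it as well. Of the 9 genes of the set only 2, Gbp2 and Nmi, kept this call under every alternative in which they were tested. With the replicate block Zbp1, Oas1a, Oasl2, Isg20 and Bst2 lost it (limma, adjusted p between 0.0769 and 0.15). Without the filter Zbp1, Isg20 and Bst2 lost it (adjusted p between 0.0613 and 0.0712).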

How the results depend on the processing

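No call of a gene of the set turned its direction under any alternative, while counts of calls moved. All genes called numbered 1288 in EpiLC, 1842 in EpiSC and 1319 for the difference, and genes of the set 20, 13 and 9. A mean of at least 5 gave 689, 969 and 553 of all genes, and 10, 7 and 4 of the set. Rescaling to a common total gave 768 in EpiLC and 832 for the difference. Each stage fitted alone gave 349 and 3511, with 11 of the set in EpiLC and 19 in EpiSC. With 1 weight per group there were 383, 4160 and 872, with 11 of the set in EpiLC and 20 in EpiSC. Under both of these settings more genes of the set were called in EpiSC than in EpiLC, the reverse of the main fit. Without both EpiLC WT replicate 2 and EpiLC dCD replicate 1 there were 763 in EpiLC and 3514 in EpiSC, with 14, 19 and 4 of the set. Leaving out each library in turn gave 358 to 3280, 507 to 3016 and 426 to 3225 of all genes, and 9 to 23, 7 to 18 and 3 to 12 of the set. Removal of a transcript length trend gave 2019 in EpiLC. The share of EpiLC calls that were higher was 74.6%, against 58.8% after quantile normalization and 51% after removal of the length trend. The losses given beside genes are mainly those without 1 library. Other settings also ended EpiLC calls of Stat2, Irf9, Usp18, Parp14, Gbp7, Ifih1, Eif2ak2, Oas1a, Isg20, Bst2 and Xaf1 (adjusted p up to 0.266) and, outside the set, of Il10rb, Jak2, Stat3, Myd88, Zc3hav1, B2m and Psme2 (up to 0.241). They ended EpiSC calls of Irf9, Parp9, Mx2, Oasl2 and Xaf1 (up to 0.118) and of Jak2, Ptpn6 and Psmb8 (up to 0.179).

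The labels do not say whether the replicate numbers pair the samples. Replicate differences of dCD and WT correlated at -0.58 in EpiLC and -0.0066 in EpiSC across genes, so no shared shift by number was seen. The negative value in EpiLC cannot tell whether libraries were paired under crossed numbers. With the replicate number as a block, 351, 582 and 304 of all genes were called, and 10, 8 and 4 of the set. With the numbers crossed in EpiLC, 2091, 2692 and 2076 of all genes and 21, 17 and 10 of the set were called. With 2 libraries a group, single calls near the threshold depend on each library, and read depth, which would limit low values, is unknown.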
